A study of Perna viridis with 2 samples.

Results

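Enzymes that modify and cross-link structural proteins were followed in the mantle of the green mussel Perna viridis, as 10 assembled genes out of 78453 with values. They were the 10 with the highest mean level among 20 entries chosen by their database match. That match had to name a transglutaminase, a diamine oxidase or a lysyl oxidase, to be the symbol TGM1, ABP1 or P4HA, or to begin with PLOD or LOXL. The 10 comprised 5 transglutaminases, 2 amine oxidases, 2 P4HA entries and 1 lysyl oxidase-like entry, and no entry began with PLOD. Because the level over both regions chose them, their levels are given as a description and not as a test.

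Bulk RNA was sequenced from untreated mantle of mature animals with shells of 6 to 7 cm, genotype unknown, collected from the wild on the Chinese coast. The periostracal groove between the outer and middle folds was compared with the submarginal zone, which extends from the folds to the pallial line. Tissue of 6 animals was pooled for each sample and the submitters' design text names 3 biological replicates, but each region has 1 deposited value per gene. Both files name the groove in their header, so every direction rests on the GEO record that holds each file. No difference below has an SD, a replicate check or a p-value. Levels are in TPM (each gene's length-adjusted share of all transcripts), so that levels of different genes can be compared within a region.

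Transglutaminases join the side chain of a glutamine to that of a lysine, which leaves a covalent bridge that proteases do not readily cut. In vertebrates they clot blood through factor XIII and harden the skin's outer envelope, and in crustaceans they clot the haemolymph. Copper amine oxidases convert amines to aldehydes. Diamine oxidase, whose gene is also called ABP1 or AOC1, acts on histamine and putrescine in mammals, whereas lysyl oxidases act on lysines of collagen and elastin, and the aldehydes then form cross-links. P4HA is the catalytic alpha subunit of prolyl 4-hydroxylase, which stabilises the collagen triple helix and forms no cross-link itself. The periostracum, the organic sheet that covers the shell, is secreted from the groove and hardened by cross-links between its proteins, of which quinone tanning is the best known.

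Transglutaminases were the most abundant class in both regions. Their 5 entries summed to 90.1 TPM in groove tissue and 45.9 TPM in the submarginal zone, which was 1.97-fold more in the groove. Amine oxidases had nearly equal sums of 28.9 and 26.2 TPM. The P4HA pair summed to 23.5 and 13.7 TPM, and the lysyl oxidase-like entry had 4.41 and 5.12 TPM. All 10 together reached 147 TPM in groove tissue and 90.9 TPM in the submarginal zone.

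Of the 10 entries, 5 had more TPM in groove tissue and 5 in the submarginal zone, but the gaps were wider on the groove side. A gene was counted as different when its ratio, with 1 TPM added to both values, was at least 4-fold and its higher region reached 10 TPM. By this measure 2 of the 7 entries that reached 10 TPM were higher in groove tissue and 0 in the submarginal zone. Over all 5800 genes reaching 10 TPM, the same rule called 9.45% higher in groove tissue and 12.4% higher in the submarginal zone. The pair higher in the groove consisted of a transglutaminase and a P4HA entry. The other 5 of the 7 were less than 4-fold apart, and 3 of the 10 did not reach 10 TPM.

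**Figure D1:**
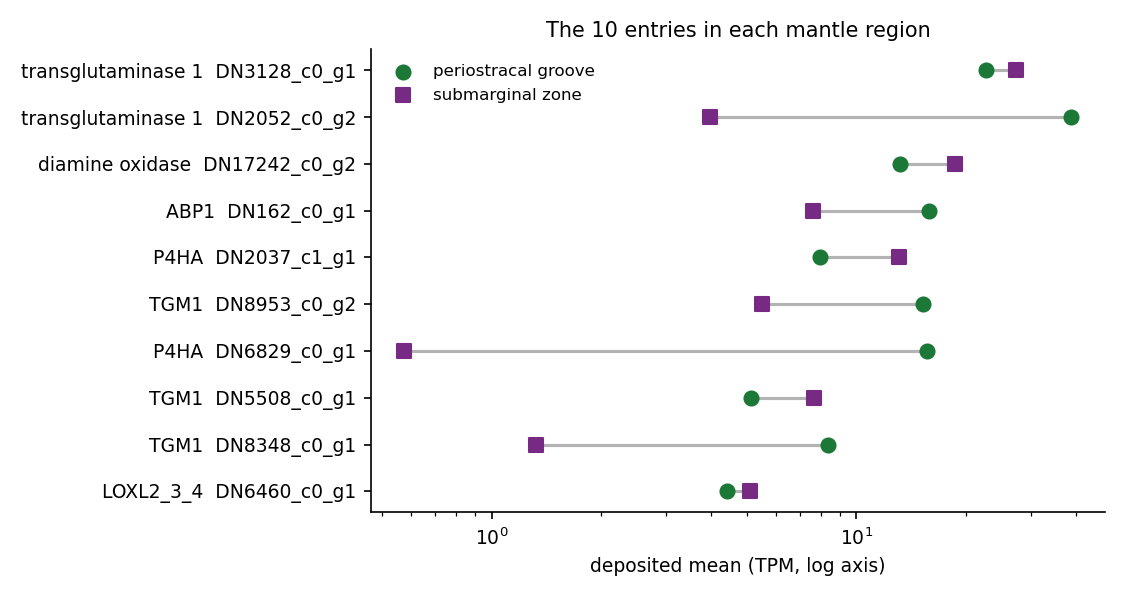
Deposited mean level (TPM, log axis) of the 10 entries in the groove (circles) and the submarginal zone (squares), with a line joining the regions. The 5 entries higher in the groove lie between 2.07-fold and 27.0-fold apart, and the 5 higher in the submarginal zone between 1.16-fold and 1.65-fold. The 27.0-fold divides by 0.58 TPM.

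The regions had different leading transglutaminases. TRINITY_DN2052_c0_g2, matched to transglutaminase 1 of Mytilus galloprovincialis, had 38.8 TPM in groove tissue and 3.97 TPM in the submarginal zone, a 9.77-fold difference. It ranked 1094 among all genes in groove tissue and 10902 in the submarginal zone. TRINITY_DN3128_c0_g1, matched to a protein of the same name and species, had 22.6 TPM in groove tissue and 27.4 TPM in the submarginal zone. This second gene therefore had similar levels in both regions, and it had the highest mean of all 20 entries. Of the TPM of all 6 transglutaminase entries, TRINITY_DN2052_c0_g2 held 42.2% in groove tissue and 8.35% in the submarginal zone, whereas TRINITY_DN3128_c0_g1 held 24.6% and 57.6%. Without TRINITY_DN2052_c0_g2, the other 4 transglutaminases among the 10 summed to 51.3 and 41.9 TPM, a 1.23-fold difference.

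The TGM1 entries had lower means over both regions and also differed from each other. TGM1 is the mammalian symbol of the membrane-bound transglutaminase of skin keratinocytes, and here it is only the name of the best match. TRINITY_DN8953_c0_g2 had 15.2 TPM in groove tissue and 5.50 TPM in the submarginal zone, which is 2.76-fold. For TRINITY_DN8348_c0_g1 the values were 8.35 and 1.33 TPM, which is 6.29-fold, but its higher value lay below 10 TPM. TRINITY_DN5508_c0_g1 was ordered the other way, at 5.15 TPM in groove tissue and 7.65 TPM in the submarginal zone. Thus 3 of the 5 transglutaminases had more TPM in groove tissue and the remaining pair had up to 1.48-fold more in the submarginal zone. In the submarginal zone TRINITY_DN5508_c0_g1 was the highest TGM1 entry, whereas in the groove TRINITY_DN8953_c0_g2 was, and both exceeded TRINITY_DN2052_c0_g2 in the submarginal zone.

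**Figure D2:**
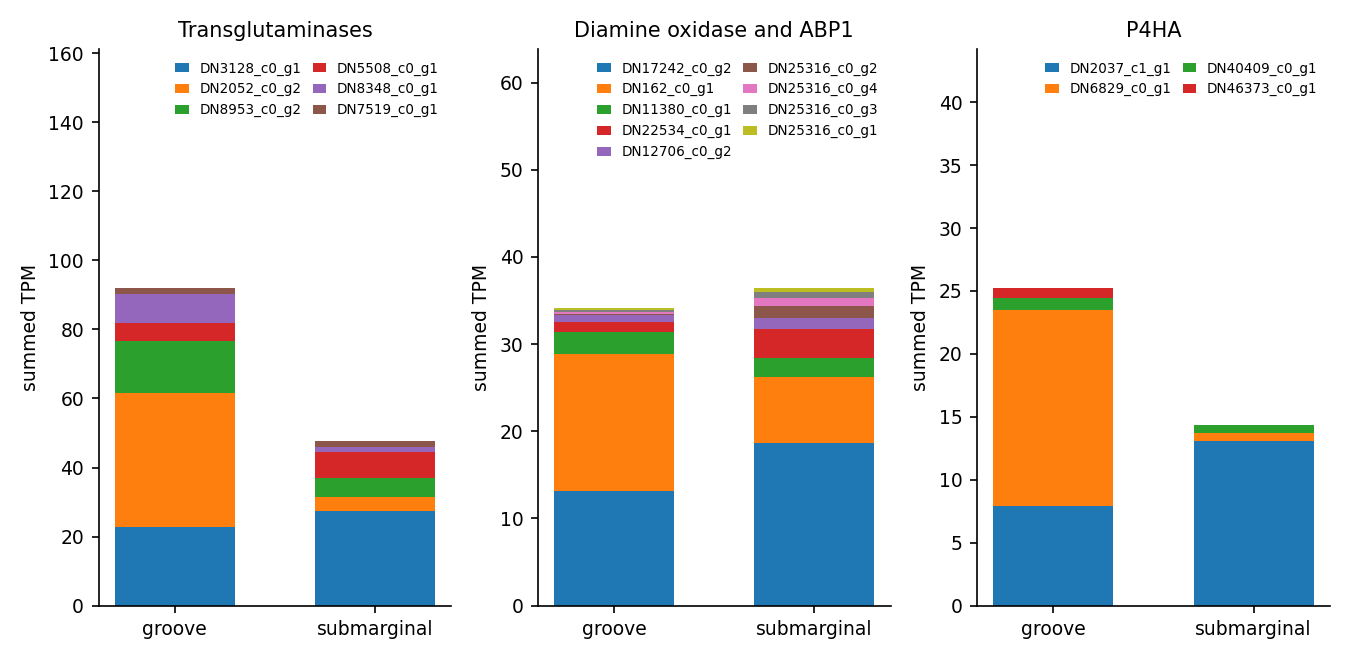
Summed TPM (linear axis from 0) of all transglutaminase, amine oxidase and P4HA entries in each region, stacked by entry. TRINITY_DN2052_c0_g2 holds 42.2% of transglutaminase TPM in groove tissue and 8.35% in the submarginal zone, and TRINITY_DN6829_c0_g1 holds 61.6% and 4.03% of P4HA TPM.

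With 1 TPM added, the P4HA pair showed the widest contrast between genes of the same name. TRINITY_DN6829_c0_g1 had 15.6 TPM in groove tissue and 0.58 TPM in the submarginal zone, a 27.0-fold difference that divides by a value below 1 TPM. TRINITY_DN2037_c1_g1 had 7.95 TPM in groove tissue and 13.1 TPM in the submarginal zone, so that it was 1.65-fold higher there. The contrast depended on the TPM added. With 5 TPM, log2 ratios were 1.88 and -0.48 for this pair, against 2.29 and -0.23 for the 2 entries named transglutaminase 1. In the groove TRINITY_DN6829_c0_g1 held 61.6% of the TPM of all 4 P4HA entries and TRINITY_DN2037_c1_g1 31.5%. In the submarginal zone these shares were 4.03% and 91.5%.

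Amine oxidases showed an exchange of order within nearly equal sums. ABP1 (TRINITY_DN162_c0_g1) had 15.8 TPM in groove tissue and 7.62 TPM in the submarginal zone, which is 2.07-fold. Diamine oxidase (TRINITY_DN17242_c0_g2) had 13.1 TPM in groove tissue and 18.6 TPM in the submarginal zone, which is 1.42-fold in the other direction. ABP1 was thus the higher of the pair in groove tissue and the lower in the submarginal zone. LOXL2_3_4 (TRINITY_DN6460_c0_g1), the only lysyl oxidase-like entry found, differed by 1.16-fold and was the lowest of the 10 in the groove.

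The entries were also set against the median gene, whose TPM was lower in the groove. The median log2 ratio, groove over submarginal zone with 1 TPM added, was -0.55 over the 5800 genes and 0.39 over the 10 entries. Over all 20 entries that the names give it was -0.22. These 20 include 4 low entries of a single assembly component, counted separately and all with negative ratios. Among the 10, log2 ratios ran from -0.66 for TRINITY_DN2037_c1_g1 to 3.39 for TRINITY_DN6829_c0_g1. Relative to the median of the 5800 genes, 9 of the 10 lay above it and TRINITY_DN2037_c1_g1 lay 0.11 below, although 3 of the 10 did not reach 10 TPM. TRINITY_DN5508_c0_g1 and the diamine oxidase lay above it by only 0.06 and 0.08. This order depended on the genes compared. Over the 20127 genes with at least 1 TPM in both regions, the median ratio without added TPM was 0.78. Below it lay TRINITY_DN2037_c1_g1 (0.61), TRINITY_DN5508_c0_g1 (0.67) and the diamine oxidase (0.71). The entries were chosen with these values known, so no test is given.

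**Figure D3:**
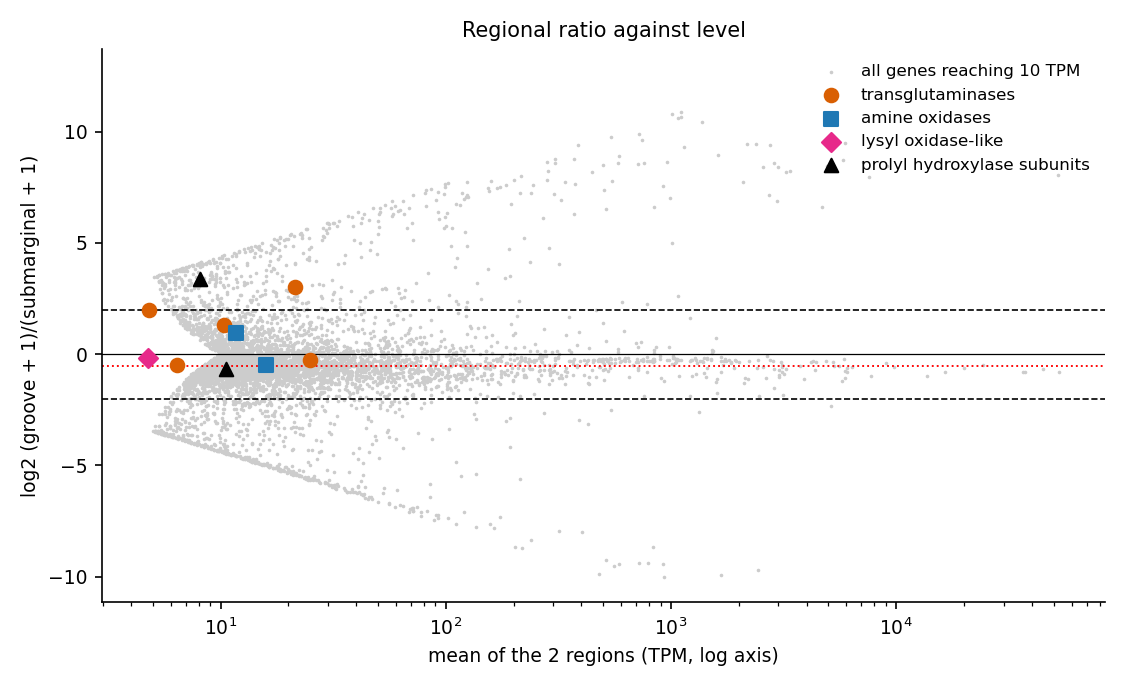
Log2 ratio of groove over submarginal zone (1 TPM added) against the mean of both regions (TPM, log axis) for genes reaching 10 TPM (grey) and the 10 entries (coloured by class), with dashed lines at 4-fold and a dotted line at the median of -0.55. TRINITY_DN2052_c0_g2 and TRINITY_DN6829_c0_g1 lie above the upper dashed line, and no entry lies below the lower one. TRINITY_DN8348_c0_g1, at 2.006, lies barely above the upper line but does not reach 10 TPM.

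The edge of the choice lay between LOXL2_3_4, with a mean of 4.76 TPM, and a diamine oxidase (TRINITY_DN11380_c0_g1) with 2.30 TPM. That diamine oxidase had 2.45 TPM in groove tissue and 2.16 TPM in the submarginal zone. Of the 10 entries below the edge, 4 had a mean of at least 1 TPM. Besides the first, these were a diamine oxidase (TRINITY_DN22534_c0_g1) at 1.15 and 3.39 TPM, the sixth transglutaminase (TRINITY_DN7519_c0_g1) at 1.91 and 1.73 TPM, and a diamine oxidase (TRINITY_DN12706_c0_g2) at 0.86 and 1.27 TPM. The lower entries were mostly amine oxidases, and 6 of the 10 had more TPM in the submarginal zone. Among these 6 were the 4 entries of a single assembly component described next.

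Under a mean of 1 TPM, 4 amine oxidase entries came from a single assembly component, TRINITY_DN25316_c0, and may be fragments of 1 gene or close copies. All 4 had more TPM in the submarginal zone, and together they had 0.71 TPM in groove tissue and 3.42 TPM there. They count as 1 source rather than as independent genes. With all 9 amine oxidase entries summed, groove tissue held 34.1 TPM and submarginal tissue 36.5 TPM, so the order of the sums turned. Of the remaining P4HA entries, TRINITY_DN46373_c0_g1 had 0.79 TPM in groove tissue and was listed at 0 in the submarginal zone, and TRINITY_DN40409_c0_g1 had 0.95 and 0.64 TPM.

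**Figure D4:**
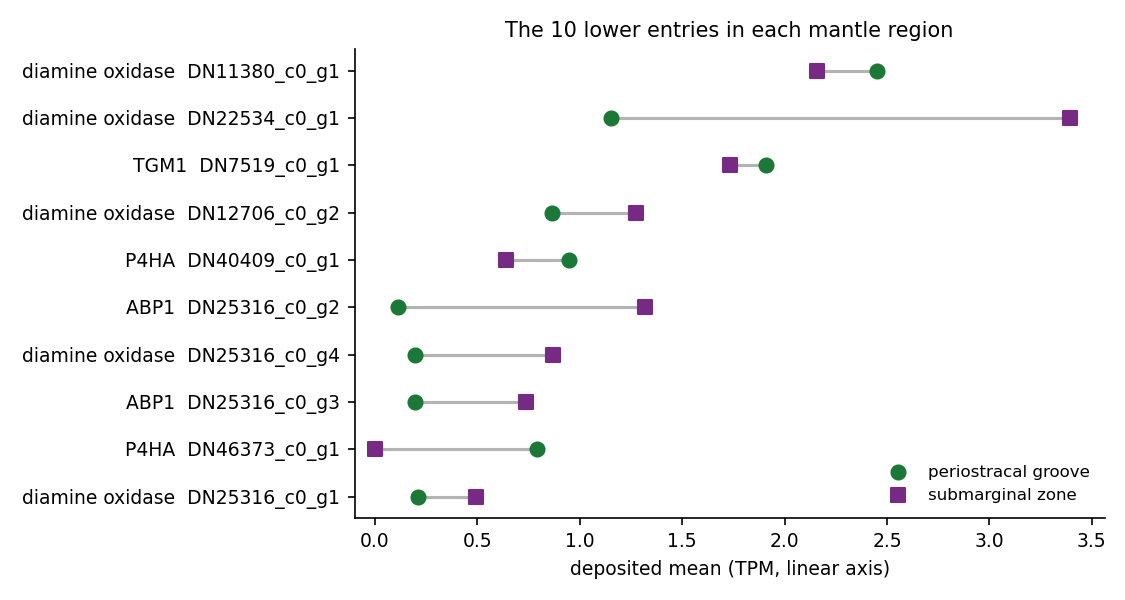
Deposited mean level (TPM, linear axis) of the 10 lower entries in the groove (circles) and the submarginal zone (squares). All lie at or below 3.39 TPM, and the 4 entries of TRINITY_DN25316_c0 all have more TPM in the submarginal zone.

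Entries of the same assembly component without a database match were also low. TRINITY_DN2052_c0_g1 had 1.32 TPM in groove tissue and 0.06 TPM in the submarginal zone, the same order as its transglutaminase neighbour. TRINITY_DN8348_c0_g2 had 1.09 and 0.04 TPM, and TRINITY_DN8953_c0_g1 had 1.06 and 0.09 TPM. The pair beside TRINITY_DN3128_c0_g1 was also higher in the groove, at 0.41 and 0.61 TPM against 0.07 and 0.06 TPM, although their named neighbour was not. The entry beside a lower diamine oxidase, TRINITY_DN12706_c0_g1, was ordered the other way with 0.27 and 1.85 TPM, and TRINITY_DN7519_c0_g2 had 0.31 and 0.26 TPM. An entry with a match, TRINITY_DN17242_c0_g1 (MGAM), lay beside the most abundant diamine oxidase. It had 1.15 TPM in groove tissue and 0.17 TPM in the submarginal zone, the opposite order to that neighbour. Whether these entries belong to the same transcripts was not tested.

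Genes that work beside these enzymes were mostly closer between the regions. PDIA1 (TRINITY_DN7396_c0_g1), the disulfide isomerase that serves as the beta subunit of prolyl 4-hydroxylase, had 271 TPM in groove tissue and 284 TPM in the submarginal zone, far above either P4HA gene. An entry matched to procollagen-lysine dioxygenases (TRINITY_DN1937_c0_g1), the lysyl hydroxylases that PLOD genes encode, had 6.67 and 9.05 TPM. The naming rule does not cover its name, although its mean of 7.86 TPM exceeds the 4.76 TPM of LOXL2_3_4. GLT25D, a collagen galactosyltransferase, had 4.75 and 8.25 TPM, and the prolyl hydroxylase P3H1 2.06 and 4.57 TPM. Only PDIA1 of the 7 collagen processing genes reached 10 TPM, and it was not 4-fold apart.

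Collagens and other fibrous proteins include substrates of lysyl oxidases and P4HA, but not every listed gene is one. Of 18 such genes reaching 10 TPM, 1 was at least 4-fold higher in each region. COL6A (TRINITY_DN490_c0_g1), a type VI collagen of microfibrils, was the most abundant at 2224 TPM in groove tissue and 2629 TPM in the submarginal zone. A gene matched to several collagen chains (TRINITY_DN457_c0_g1) had 259 and 354 TPM, a type I collagen (TRINITY_DN27237_c0_g2) 238 and 338 TPM, and collagen-like protein-2 (TRINITY_DN33671_c0_g1) 221 and 183 TPM. The gene higher in the groove was COL8A, a short-chain collagen, at 25.4 against 5.55 TPM. The gene higher in the submarginal zone was another with several collagen matches (TRINITY_DN32102_c0_g1), at 1.04 against 13.7 TPM. The median log2 ratio of 32 genes with a mean of at least 1 TPM was -0.27.

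Polyamine metabolism, which makes putrescine, the substrate of diamine oxidase, had 1 of 5 genes reaching 10 TPM at least 4-fold higher in groove tissue and 0 in the submarginal zone. That gene was a spermidine synthase (TRINITY_DN8517_c0_g1), which consumes putrescine, at 15.3 against 2.44 TPM. Ornithine decarboxylase, which forms putrescine and is annotated by its EC number E4.1.1.17 (TRINITY_DN18321_c0_g1), had 155 and 237 TPM. Its inhibitor, an antizyme (TRINITY_DN2618_c0_g1), had 79.5 and 101 TPM. Arginase, annotated E3.5.3.1, had 18.9 and 28.6 TPM, and spermine oxidase (SMOX, TRINITY_DN6262_c0_g1) 11.2 and 16.02 TPM. The median log2 ratio of the 13 genes with a mean of at least 1 TPM, of 19 found, was -0.34.

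Other amine oxidases had 1 gene reaching 10 TPM, a monoamine oxidase (MAO, TRINITY_DN2306_c0_g1) at 7.37 and 14.6 TPM, which was not 4-fold apart. Further MAO genes had 3.60 against 2.77 TPM (TRINITY_DN2938_c0_g1) and 2.22 against 2.21 TPM (TRINITY_DN14144_c0_g1). AOC1, a synonym of ABP1 that the naming rule does not cover, had 1.73 and 2.25 TPM. The median log2 ratio of the 7 genes with a mean of at least 1 TPM was -0.32, and over all 10 detected it was -0.73.

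Copper supply was described because diamine and lysyl oxidases hold copper. None of its 3 genes reaching 10 TPM was 4-fold apart. A copper chaperone (TRINITY_DN1090_c0_g1) had 32.4 and 19.5 TPM, a copper transporter of solute carrier family 31 (TRINITY_DN14119_c0_g1) 21.3 and 11.9 TPM, and CP, the symbol of the copper oxidase ceruloplasmin, 18.6 and 24.3 TPM. SLC31A1, another copper uptake transporter, had 7.29 and 9.97 TPM. The median log2 ratio of all 5 was 0.70.

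Tyrosinases and peroxidases, listed here as tyrosine-based cross-linking, lay mostly on the groove side. Most of those 4-fold apart were peroxidasins, and whether these act on tyrosine was not tested. Of 14 tyrosinases, peroxidasins and a byssal peroxidase reaching 10 TPM, 11 passed the 4-fold rule with more TPM in groove tissue and 0 in the submarginal zone, with a median log2 ratio of 2.80 over 22 measured genes. The leading PXDN, a peroxidasin that in animals cross-links collagen IV, had 246 against 0.86 TPM. Among tyrosinases, which oxidise tyrosine to quinones, TRINITY_DN239_c0_g1 had 31.7 against 68.6 TPM and a tyr-3 gene (TRINITY_DN11209_c0_g1) 57.5 against 4.80 TPM. A second PXDN (TRINITY_DN1929_c0_g1) had 36.8 against 5.69 TPM. The difference between this list and the 10 entries was not tested.

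**Figure D5:**
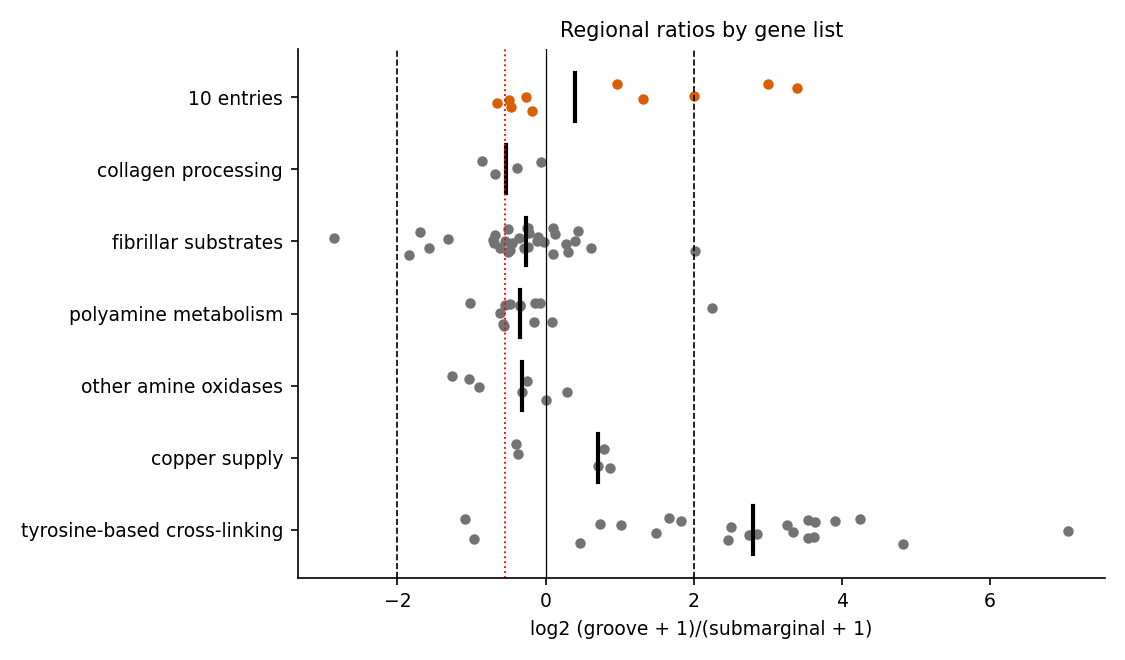
Log2 ratio of groove over submarginal zone (1 TPM added) for the 10 entries and for genes with a mean of at least 1 TPM in each list, with black bars at the medians, dashed lines at 4-fold and a dotted line at the median of all genes reaching 10 TPM. The medians are 0.39 for the 10 entries, -0.54 for collagen processing and 2.80 for tyrosine-based cross-linking.

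All cell types of the dissected tissue were sequenced, and markers of other cells are given with their sums. Shell protein-3 had 9781 TPM in groove tissue and 26.5 TPM in the submarginal zone, and 15 mantle and shell genes summed to 10037 and 242 TPM. Without shell protein-3 that sum, computed after its values were seen, was 256 and 215 TPM. Shell protein-6 (68.1 and 81.4 TPM) and a perlucin-like gene (19.1 and 37.6 TPM) were lower in the groove. A nacre protease inhibitor-like gene (128 and 62.2 TPM) and a chitin synthase (34.8 and 29.1 TPM) were higher there. The median log2 ratio of the 5 mantle and shell genes with a mean of at least 1 TPM was 0.25, with 3 of them higher in the groove. The 17 haemocyte genes summed to 1503 and 2461 TPM, with none at 0 in either region, and the 66 muscle genes to 5395 and 16224 TPM, with 9 and 10 at zero. The median log2 ratio of 27 muscle genes with a mean of at least 1 TPM was -0.21, with 11 of them higher in the groove. That of the 17 haemocyte genes was -0.45. The median of -0.55 for all genes is over those reaching 10 TPM, so it is not a like comparison for these lists. The most abundant muscle gene, a paramyosin, had a log2 ratio of -1.82, and without it the muscle sum was 4003 and 11324 TPM. The 9 germ-cell genes summed to 25.2 and 391 TPM, and the most abundant, a TSSK, had 0.10 and 144 TPM. NANOS3 and a Siwi-like gene were at 0 in the groove and at only 0.85 and 0.65 TPM in the submarginal zone. The 94 cilia genes summed to 356 and 1243 TPM, with 13 and 10 at 0. Over genes with a mean of at least 1 TPM, the median log2 ratio was -4.35 for 6 germ-cell genes, with 0 higher in the groove. For 40 cilia genes it was -1.33, with 5 higher in the groove. Genes 4-fold higher in groove tissue and in the submarginal zone numbered 0 and 1 among 13 haemocyte genes reaching 10 TPM, 1 and 1 among 14 muscle genes, 0 and 5 among 5 germ-cell genes, 0 and 7 among 21 cilia genes, and 1 and 0 among 5 mantle and shell genes. The part of these cells in the enzyme levels was not tested, and in bulk tissue fewer cells of a type and less RNA per cell cannot be told apart.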

How the data were processed

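Both regions were profiled by RNA-seq from TruSeq libraries of DNase-treated total RNA, per the labels' protocols. The program fastp was run, per the submitters' processing notes, but its version is not given in the sources used here, nor are the assembler and the quantifier. Values as deposited by the authors sum to 999875 and 999820 and were read as TPM, although no header or label names the unit. They lie on steps of 1/300 TPM, as means of 3 values with 2 decimals would, and depth is unknown. The value column of both deposited tables has the groove's name, so each table was assigned by its GEO record; if they were exchanged, every direction would turn. Of 78458 genes, 5 with empty cells were left out.

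Values were computed with numpy 2.4.6 and pandas 2.3.3 under Python 3.11.15 and drawn with matplotlib 3.10.9. Log2 ratios had 1 TPM added, which understates changes of low genes. The calling rule was run on simulated data with planted changes above its threshold and counting noise only. That simulation held no variation between animals, so it gives no error rate for these data. The entries, gene lists and rules were chosen with earlier results of these data known, and list patterns were trimmed of wrong matches after names and values had been seen. The muscle list still held names not particular to muscle. Named are all entries with a mean of at least 1 TPM, and of each list up to 4 with the highest mean and up to 8 with those 4-fold apart; lower entries, neighbours in the assembly and marker genes were named after their values were seen. Of the tyrosine list only the 4 highest are named. Alternatives were other pseudocounts, thresholds, minimums and scalings. Names are best matches of assembled fragments, and genes of 1 family may share reads.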

Additional observations from a re-analysis of the deposited data

How the results depend on the processing

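Adding 5 TPM left 1 entry at least 4-fold higher in the groove in place of 2, the transglutaminase TRINITY_DN2052_c0_g2, while TRINITY_DN6829_c0_g1 moved to a log2 ratio of 1.88. A minimum of 1 TPM, a 2-fold threshold and median-of-ratios scaling each gave 3, and no setting gave an entry higher in the submarginal zone. Over all 20 entries, with the 4 of TRINITY_DN25316_c0 counted separately, the median log2 ratio turned to -0.22. The log2 ratio of summed amine oxidases turned from 0.14 to -0.10. Scaling by the median of ratios over 20127 genes raised every TPM ratio by 0.36 on the log2 scale. It turned the summed lysyl oxidases to 0.15, TRINITY_DN6460_c0_g1 to 0.12, TRINITY_DN3128_c0_g1 to 0.083 and the median of fibrous proteins to 0.072, and moved the share of all calls that were higher in the groove from 43.3% to 50.5%. Adding 5 TPM also left 0 fibrous proteins higher in the groove, 0 in the submarginal zone, 0 polyamine genes, and 6 tyrosine-based genes higher in the groove. The median of that last list was 3.86 with 0.1 TPM added, 1.44 with 5 TPM, 1.15 with every detected member and 3.54 for members averaging 5 TPM or more. A value was taken as moved beyond 1.5-fold, since no replicate spread exists. No paired analysis was possible because each region has 1 deposited profile, and no replicate could be left out for the same reason. The unknown depth leaves no counting interval, which limits entries near 1 TPM most.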
